A study of Mus musculus with 18 samples.

Results

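The enzymes of glycolysis, lactate formation, pyruvate entry and the pentose phosphate pathway were followed in LT-HSCs (long-term haematopoietic stem cells of the mouse), the bone marrow cells from which all blood lineages can be rebuilt. The group was defined as a list of 35 gene symbols, and 35 of 35 were found among the 21003 symbols of the count table. Each of the 18 libraries was made from 100 sorted LT-HSCs of young mice aged 8 to 12 weeks. There were 3 groups with 6 libraries each: LT-HSCs cultured for 48 h in medium at pH 6.9, LT-HSCs cultured for 48 h at pH 7.4, and fresh, uncultured LT-HSCs labelled pH 7.4. Per the labels, the mice are wild type and are named B6.SJL in one field and C57 B6 in another, and no mutation or transgene is given for any group. Both cultures were kept under 3% oxygen in IMDM with 10% serum and 3 cytokines at 50 ng/ml (thrombopoietin, stem cell factor and G-CSF). The labels number the mice 1 to 6 in each group, and the series compares the 2 pH values of the medium.

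Glycolysis splits glucose to pyruvate and yields a little ATP without oxygen. Lactate dehydrogenase then reduces pyruvate to lactate, or the pyruvate dehydrogenase complex carries it into the mitochondrion's citric acid cycle, a step that the pyruvate dehydrogenase kinases switch off. The pentose phosphate pathway branches off after glucose has been phosphorylated, and supplies NADPH and ribose for nucleotides. LT-HSCs are known for a quiescent, glycolytic metabolism in the hypoxic bone marrow, where hypoxia-inducible factor and pyruvate dehydrogenase kinases have been described as keeping pyruvate out of the mitochondrion.

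Many genes of these enzymes are textbook targets of hypoxia-inducible factor, whose binding element holds the letters ACGTG, and of E-box factors such as Myc and Usf, which read CACGTG. The promoters of 4 members whose RNA levels turned out to move together or in opposite directions are shown, from 250 bases before to 50 bases after the start of transcription (RefSeq, GRCm38.p6), with capitals for ACGTG on either strand, CACGT being its reverse complement. Pgk1 lies at chrX:106186850-106187149 on the plus strand, Gapdh at chr6:125165724-125166023 on the minus strand, Ldha at chr7:46845554-46845853 on the plus strand and Pdk2 at chr11:95041322-95041621 on the minus strand.
Pgk1: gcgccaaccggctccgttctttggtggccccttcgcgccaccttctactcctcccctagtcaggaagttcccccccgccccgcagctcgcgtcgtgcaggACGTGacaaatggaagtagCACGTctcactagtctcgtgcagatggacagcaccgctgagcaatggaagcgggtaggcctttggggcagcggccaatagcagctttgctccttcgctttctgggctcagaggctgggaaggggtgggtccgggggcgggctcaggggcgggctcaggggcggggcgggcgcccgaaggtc
Gapdh: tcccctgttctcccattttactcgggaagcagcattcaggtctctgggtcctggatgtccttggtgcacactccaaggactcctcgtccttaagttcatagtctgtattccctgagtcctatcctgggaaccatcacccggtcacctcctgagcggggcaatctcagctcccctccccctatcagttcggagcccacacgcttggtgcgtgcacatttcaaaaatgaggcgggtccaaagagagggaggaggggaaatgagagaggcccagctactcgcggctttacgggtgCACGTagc
Ldha: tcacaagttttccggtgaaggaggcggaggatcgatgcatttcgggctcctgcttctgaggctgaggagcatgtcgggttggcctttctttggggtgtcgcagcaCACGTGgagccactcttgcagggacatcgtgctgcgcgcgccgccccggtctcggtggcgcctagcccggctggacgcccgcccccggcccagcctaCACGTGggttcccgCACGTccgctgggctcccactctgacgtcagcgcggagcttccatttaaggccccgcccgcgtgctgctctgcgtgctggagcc
Pdk2: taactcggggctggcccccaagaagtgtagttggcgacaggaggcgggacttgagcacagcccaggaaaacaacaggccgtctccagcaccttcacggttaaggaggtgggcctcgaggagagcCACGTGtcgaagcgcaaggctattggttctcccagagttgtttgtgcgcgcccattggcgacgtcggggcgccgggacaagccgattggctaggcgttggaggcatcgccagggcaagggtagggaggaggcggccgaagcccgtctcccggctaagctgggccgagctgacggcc
Every CACGTG holds ACGTG on both strands and so was counted 2 times, which gave 5 matches in Ldha, 2 in Pgk1, 2 in Pdk2 and 1 in Gapdh. The Ldha promoter held 2 copies of CACGTG and the Pdk2 promoter 1 copy. RefSeq lists 55 promoters for the 35 genes. ACGTG was present on either strand in 21 of these 55 (38.2%), against 19.6% of all 32851 promoters of the same length. CACGTG was found in 5 of the 55 (9.09%) and in 7.15% of all promoters. The GC box GGGCGG was found in 29 of the 55 (52.7%), against 35.7% of all promoters, and the TATA box TATAAA in 2 of them (3.64%), against 13.6%. Against the gene starts of GENCODE M21, the RefSeq start used here lies 17 bases upstream for Pdk2, at the same base for Pgk1, and 694 and 4329 bases inside the gene for Gapdh and Ldha. These matches describe letters only, since no binding was measured here.

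Levels are given as CPM, counts scaled to a common library total (1e+06), on library totals scaled by TMM, edgeR's trimmed mean of M values. Total counts were 6311 in fresh replicate 1 and 1640817 to 7508120 in the other 17 libraries. Fresh replicate 1, fresh replicate 4 and pH 6.9 replicate 3 stood apart with 3035, 9408 and 8925 genes detected, against 11225 to 12792 in the other 15 libraries, where a single count was worth 0.137 to 0.615 CPM. All 12 LT-HSC markers checked, Procr, Mecom, Hlf and Slamf1 among them, had counts in each set of the 15 libraries. Their summed level was 1236 to 1622 CPM at pH 6.9, against 1284 to 1775 CPM at pH 7.4 and 770.2 to 1104 CPM in fresh cells of odd-numbered mice. In even-numbered mice it was 1462 to 1907 CPM at pH 6.9, against 577 to 847 CPM at pH 7.4 and 909 to 952 CPM in fresh cells, so that the pH groups overlapped in odd-numbered mice and did not in even-numbered mice. Within each group the odd-numbered mice shared a first sequencing index (705 at pH 6.9, 707 at pH 7.4 and 701 in fresh cells) and the even-numbered mice another (706 at pH 6.9, 708 at pH 7.4 and 702 in fresh cells), so that within a set of mice the pH of the medium and the index cannot be told apart. Because LT-HSCs were measured in bulk, fewer cells of a type and less RNA per cell cannot be told apart either.

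Over all 6 mice no enzyme passed the test between LT-HSCs cultured at pH 6.9 and at pH 7.4. In edgeR's quasi-likelihood test over 18 libraries and 10104 genes (adjusted p under 0.05), 0 of the 34 enzymes tested passed, as did 0% of all genes. At an unadjusted p under 0.05 there were 2 enzymes and 254 genes, and DESeq2 called 0 enzymes and 4 genes. Eno2, the neuronal enolase, was too low to be tested, with at most 3.64 CPM in the 15 libraries. The median log2 fold change of the 34 enzymes was -0.32, beside -0.01 over all genes, and 11 of the 34 were above 0.

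The smallest unadjusted p values belonged to Hk3, a hexokinase of myeloid blood cells, and to G6pdx, glucose-6-phosphate dehydrogenase, which opens the pentose phosphate pathway. G6pdx stood at 11.7, 119, 0, 108, 69.7 and 86.8 CPM at pH 6.9 in mice 1 to 6, against 204, 322, 98.2, 235, 109 and 308 CPM at pH 7.4. It was lower at pH 6.9 in 6 of 6 mice, and the groups overlapped, with 119 CPM as the highest value at pH 6.9 and 98.2 CPM as the lowest at pH 7.4. The 0 CPM of mouse 3 came from pH 6.9 replicate 3, a library that stood apart with 8925 genes detected. The means were 65.8 ± 49.6 CPM at pH 6.9 and 213 ± 95.3 CPM at pH 7.4 (SD, n = 6 each), with 108 ± 68.0 CPM in fresh cells. The log2 fold change was -1.68 ± 0.67 (SE), with an edgeR adjusted p of 0.997. Hk3 averaged 2.11 ± 2.07 CPM at pH 6.9 and 18.7 ± 21.6 CPM at pH 7.4 (SD, n = 6 each), a log2 fold change of -3.17 ± 1.23 with an edgeR adjusted p of 0.997. Pfkl, Pfkm and Pdha1 were also lower at pH 6.9 in 6 of 6 mice, with pH 6.9 replicate 3 among them, and none of them passed. How many of all genes were lower in 6 of 6 mice was not counted.

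Against fresh cells, neither culture passed for any enzyme. In LT-HSCs cultured at pH 7.4, 0 of 34 enzymes and 0% of 10104 genes were called by edgeR, 2 enzymes and 381 genes had an unadjusted p under 0.05, and DESeq2 called 0 genes. At pH 6.9 the counts against fresh cells were 0 enzymes and 0% of genes, with 2 enzymes and 229 genes at an unadjusted p under 0.05 and 0 by DESeq2. Pdk2, a pyruvate dehydrogenase kinase, had its lowest mean in fresh cells, at 21.8 ± 19.2 CPM at pH 6.9, 21.1 ± 15.2 CPM at pH 7.4 and 4.54 ± 4.69 CPM in fresh cells (SD, n = 6 each). The fresh mean includes fresh replicate 1 and fresh replicate 4, which held no counts of it, and a single count is worth 79.5 CPM in fresh replicate 1. Among odd-numbered mice in the 15 libraries, Pdk2 had a higher mean in fresh cells than at pH 6.9. Its log2 fold change was 1.97 ± 0.83 at pH 6.9 and 1.91 ± 0.83 at pH 7.4 against the same fresh libraries, with edgeR adjusted p values of 1 and 0.879. When the odd-numbered and even-numbered mice were given equal weight in the 15 libraries, a fit chosen after seeing the data, Pdk2 was called higher at pH 7.4 than in fresh cells (log2 fold change 1.501 ± 0.33, edgeR adjusted p = 0.0468), where 0.45% of all genes were called.

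The libraries of odd-numbered and even-numbered mice did not change alike with pH. In each group the sets of mice also carried different first sequencing indices, so that mouse set and index cannot be told apart in this difference. In the fit with separate levels for the 6 sets of group and mouse parity (15 libraries, 10659 genes), the pH change of 12 of 34 enzymes differed between the sets of mice, beside 18.1% of all genes. Of these 12, 8 had a higher log2 fold change of pH 6.9 over pH 7.4 in odd-numbered mice (Pgk1, Gapdh, Tpi1, Ldha, Pgam1, Hk2, Gpi1 and Pgls) and 4 a lower one (Pdk2, Pfkfb4, Aldoc and Ldhb), with 9.09% and 8.96% of all genes in those directions. The median difference was 0.13 over the 34 enzymes, with the same value when Pfkfb4 was set at its bound, and -0.14 over all genes. The count of enzymes moved when each library was left out in turn, and so did the count over all genes. With the mouse number as a block 12 enzymes were called, and the count over all genes in that fit is not given here. With the 3 libraries that stood apart included, 2 enzymes, Pdk2 and Pfkfb4, and 173 genes passed.

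**Figure D1:**
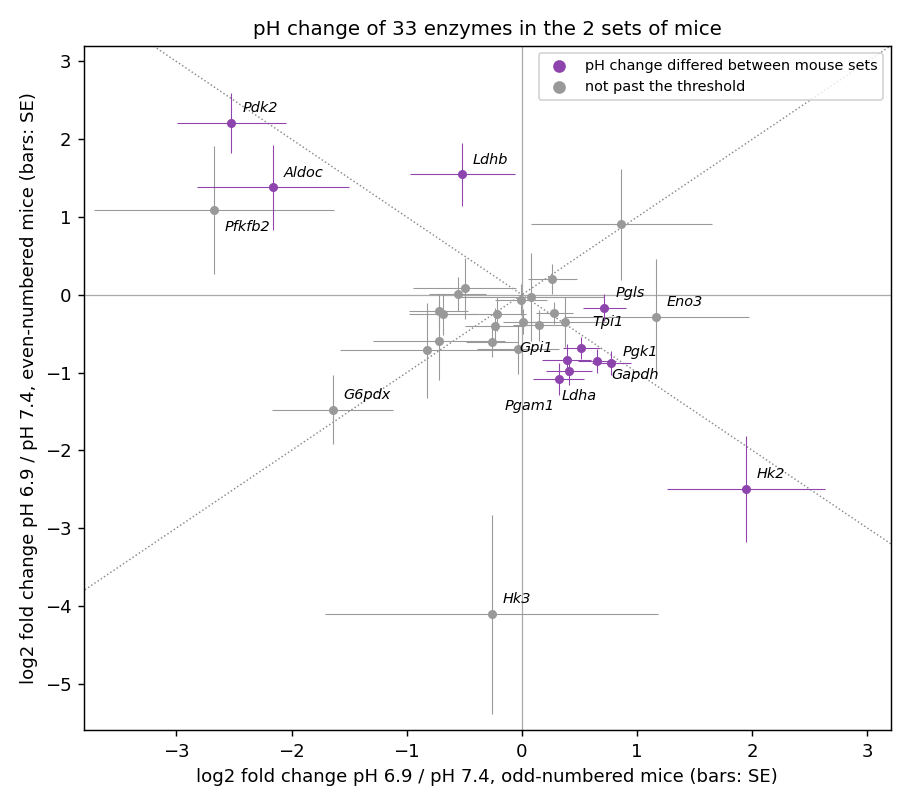
Log2 fold change of pH 6.9 over pH 7.4 with its SE in odd-numbered mice (x axis) and even-numbered mice (y axis) for 33 enzymes in 15 libraries, with Pfkfb4 left off because both pH 6.9 libraries of odd-numbered mice held 0 counts of it. Dotted diagonals mark equal and opposite changes. The 11 purple enzymes changed differently in the sets of mice, Pdk2 with -2.52 and 2.21 and Hk2 with 1.95 and -2.50, while G6pdx, which was not called, lies near the diagonal of equal change with -1.64 and -1.48.

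Within odd-numbered mice (2 libraries at pH 6.9 and 3 at pH 7.4), 7 of 34 enzymes were called, beside 11.1% of all genes. Pgk1, Gapdh, Pgls and Tpi1 rose at pH 6.9 (5.07% of all genes were higher) and Pdk2, Pfkfb4 and Aldoc fell (6.01% were lower). Within even-numbered mice (3 libraries each), 9 of 34 were called, beside 6.75% of all genes: Pdk2 and Ldhb rose (2.67% were higher), and Pgk1, Gapdh, Ldha, Pgam1, Tpi1, Gpi1 and Hk2 fell (4.07% were lower). The median log2 fold change over the 34 enzymes was -0.02 in odd-numbered mice and -0.32 in even-numbered mice, beside -0.08 and 0.04 over all genes.

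The count in odd-numbered mice was 4 without pH 7.4 replicate 1 or replicate 3, and it was 2 (Pgk1 and Pdk2) with the mouse number as a block. The count over all genes in odd-numbered mice also moved when a library was left out, and that of the blocked fit is not given here. Without pH 6.9 replicate 1 or replicate 5 a lone library was left in its set. Over all genes, leaving out each library gave 161 to 491 calls in even-numbered mice, against 719 in the full fit. The enzyme count there was 5 without pH 7.4 replicate 6, and 9 with the block. With all 18 libraries it was 0 in both sets of mice, where edgeR called 65 genes in odd-numbered mice and 0 in even-numbered mice, and 8 enzymes in the odd-numbered mice and 5 in the even-numbered mice had an unadjusted p under 0.05. In the following, libraries are listed in the order of the mouse numbers: mice 1 and 5 at pH 6.9, mice 1, 3 and 5 at pH 7.4 and mice 3 and 5 for fresh cells among odd-numbered mice, and mice 2, 4 and 6 at each pH and mice 2 and 6 for fresh cells among even-numbered mice. Fold changes are log2 of pH 6.9 over pH 7.4 with their SE, and adjusted p values are from edgeR.

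**Figure D2:**
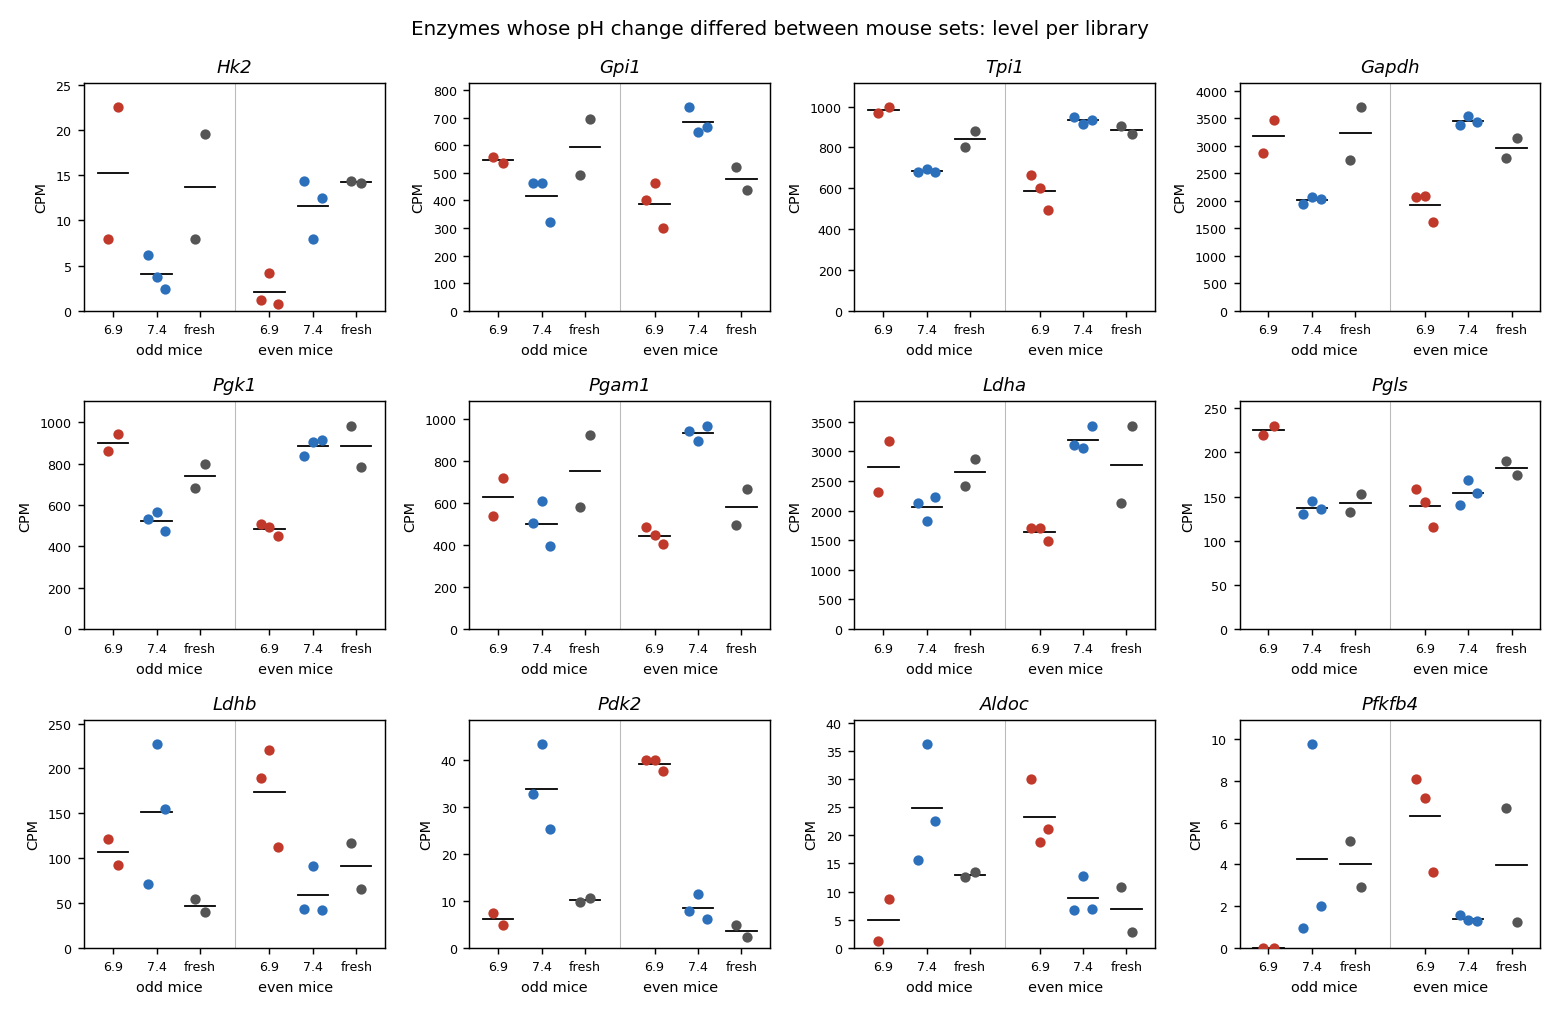
CPM in each of 15 libraries for the 12 enzymes whose pH change differed between the sets of mice; points are libraries, bars are set means, with pH 6.9 in red, pH 7.4 in blue and fresh cells in grey. The pH 6.9 points of Pgk1 lie above the pH 7.4 points in odd-numbered mice and below them in even-numbered mice, and those of Pdk2 do the reverse.

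Hexokinases trap glucose in the cell by phosphorylating it. Hk1, the housekeeping hexokinase, ranged from 27.3 to 94.6 CPM over the 15 libraries. Its values were 45.5 and 42.1 CPM at pH 6.9, against 94.6, 63.1 and 27.3 CPM at pH 7.4 and 88.1 and 72.5 CPM in fresh cells of odd-numbered mice. In even-numbered mice it stood at 67.7, 39.4 and 36.0 CPM at pH 6.9, against 57.8, 42.0 and 32.7 CPM at pH 7.4 and 87.2 and 37.6 CPM in fresh cells, so that the groups overlapped in both sets of mice.

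Hk2 is the inducible hexokinase that can sit on the mitochondrial surface. It was low throughout, at 7.99 and 22.6 CPM at pH 6.9, against 6.18, 3.77 and 2.37 CPM at pH 7.4 and 7.88 and 19.5 CPM in fresh cells of odd-numbered mice. In even-numbered mice the order was turned round, with 1.16, 4.18 and 0.766 CPM at pH 6.9, against 14.4, 7.98 and 12.5 CPM at pH 7.4 and 14.3 and 14.1 CPM in fresh cells. The pH groups did not overlap within either set. The log2 fold change was 1.95 ± 0.69 in odd-numbered mice (adjusted p = 0.0742) and -2.50 ± 0.68 in even-numbered mice (adjusted p = 0.0335), a difference of 4.45 ± 0.96 (adjusted p = 0.00362). The call in even-numbered mice was lost with the mouse number as a block (adjusted p = 0.0527) and without pH 7.4 replicate 2 (0.106), pH 7.4 replicate 6 (0.127), pH 6.9 replicate 2 (0.0962) or pH 6.9 replicate 6 (0.158). Hk3 reached 39.6, 13.7 and 51.3 CPM at pH 7.4 in even-numbered mice and 61.2 CPM in 1 fresh library, and stayed at or below 6.97 CPM in the other 11 libraries.

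Gpi1, glucose phosphate isomerase, turns the product of hexokinase into fructose phosphate. It stood at 557 and 534 CPM at pH 6.9, against 462, 463 and 322 CPM at pH 7.4 and 492 and 696 CPM in fresh cells of odd-numbered mice. The even-numbered mice gave 401, 463 and 298 CPM at pH 6.9, against 739, 647 and 668 CPM at pH 7.4 and 519.8 and 436 CPM in fresh cells. It fell in even-numbered mice, by 0.83 ± 0.20 on the log2 scale (adjusted p = 0.0162), with 0.39 ± 0.22 in odd-numbered mice (adjusted p = 0.264) and a difference of 1.22 ± 0.29 (adjusted p = 0.00659). The call in even-numbered mice was lost without pH 7.4 replicate 2 (0.0659), pH 7.4 replicate 6 (0.0723) or pH 6.9 replicate 6 (0.105).

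Phosphofructokinase commits sugar to glycolysis, and per kb of transcript the liver-type gene Pfkl made up 42.5 to 74.9% of it and the platelet-type gene Pfkp 19.3 to 52.8%. The muscle-type gene Pfkm ranged from 4.22 to 19.4 CPM. Pfkl stood at 96.5 and 146 CPM at pH 6.9, against 256, 192 and 156 CPM at pH 7.4 and 213 and 134 CPM in fresh cells of odd-numbered mice. In even-numbered mice it was nearly level, with 131, 125 and 109 CPM at pH 6.9, against 154, 128 and 137 CPM at pH 7.4 and 111 and 131 CPM in fresh cells. Its log2 fold change was -0.72 ± 0.26 in odd-numbered mice (adjusted p = 0.0771). Pfkp gave 91.6 and 119 CPM at pH 6.9, against 60.4, 72.7 and 112 CPM at pH 7.4 and 188 and 149 CPM in fresh cells of odd-numbered mice. The even-numbered mice gave 141, 75.5 and 96.6 CPM at pH 6.9, against 160.3, 91.7 and 141 CPM at pH 7.4 and 58.9 and 146 CPM in fresh cells, with overlapping groups. Exons of Pfkp overlap those of Pitrm1 on the other strand over 748 bp, and since the kit keeps no strand the reads of that stretch cannot be told apart.

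The PFKFB enzymes make or break an isomer of fructose bisphosphate that activates phosphofructokinase and is not its product, and all 4 were at low levels. Pfkfb1, Pfkfb2 and Pfkfb3 stayed between 0.895 and 25.7 CPM and did not pass in any pH comparison. Pfkfb4, a form known to be induced by hypoxia, had 0 counts in both pH 6.9 libraries of odd-numbered mice, against 0.951, 9.76 and 1.97 CPM at pH 7.4 and 5.10 and 2.901 CPM in fresh cells. The even-numbered mice gave 8.10, 7.16 and 3.64 CPM at pH 6.9, against 1.54, 1.33 and 1.27 CPM at pH 7.4 and 6.68 and 1.25 CPM in fresh cells. With a floor of 3 counts over both pH 6.9 libraries together, the mean of odd-numbered mice was at least 12.6-fold lower at pH 6.9 than at pH 7.4 (adjusted p = 0.0236). This bound was 4.36-fold without pH 7.4 replicate 3, which held the highest value, and 2.29-fold without pH 6.9 replicate 5, the deeper library at 0. That call was lost with the mouse number as a block (adjusted p = 0.0843) and without pH 7.4 replicate 3 (0.0777), pH 6.9 replicate 1 (0.0768) or pH 6.9 replicate 5 (0.183). Odd-numbered and even-numbered mice differed in this change (adjusted p = 0.00587), a call lost without pH 6.9 replicate 5 (0.0569).

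Aldolase splits the fructose bisphosphate that phosphofructokinase makes. Aldoa, the ubiquitous form, ranged from 1523 to 2559.6 CPM. Aldoa did not pass between the pH values, and it was higher in odd-numbered than in even-numbered mice within pH 6.9, as given below. Aldoc, the brain-type aldolase, stood at 1.23 and 8.61 CPM at pH 6.9, against 15.7, 36.3 and 22.5 CPM at pH 7.4 and 12.5 and 13.5 CPM in fresh cells of odd-numbered mice. In even-numbered mice it was at 30.1, 18.8 and 21.1 CPM at pH 6.9, against 6.68, 12.7 and 6.96 CPM at pH 7.4 and 10.8 and 2.82 CPM in fresh cells. Neither set of mice had overlapping pH groups. Aldoc fell by 2.16 ± 0.66 on the log2 scale in odd-numbered mice (adjusted p = 0.0416), with 1.38 ± 0.55 in even-numbered mice (adjusted p = 0.145) and a difference of -3.54 ± 0.86 (adjusted p = 0.00774). The fall was lost as a call with the mouse number as a block (0.0597) and without pH 7.4 replicate 3 (0.121) or pH 6.9 replicate 1 (0.231).

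Tpi1, triose phosphate isomerase, interconverts the triose phosphates that aldolase releases. It stood at 967 and 997 CPM at pH 6.9, against 678, 696 and 680.5 CPM at pH 7.4 and 802 and 880.1 CPM in fresh cells of odd-numbered mice. The even-numbered mice had 662, 601 and 491 CPM at pH 6.9, against 950.2, 913 and 934 CPM at pH 7.4 and 907 and 867 CPM in fresh cells. Tpi1 rose in odd-numbered mice (0.52 ± 0.16, adjusted p = 0.0436) and fell in even-numbered mice (-0.69 ± 0.15, adjusted p = 0.00875), a difference of 1.20 ± 0.22 (adjusted p = 0.000874). The rise was lost with the block (0.107), without a filter on low counts (0.119) and without pH 7.4 replicate 1 (0.0923), 3 (0.0824) or 5 (0.0591) or pH 6.9 replicate 1 (0.138) or 5 (0.167). The fall was lost without pH 7.4 replicate 6 (0.0581) or pH 6.9 replicate 6 (0.0697).

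The lower part of glycolysis, where ATP is regained, held 3 called enzymes in sequence. Gapdh, which oxidises triose phosphate, stood at 2874 and 3465 CPM at pH 6.9, against 1935, 2077 and 2027 CPM at pH 7.4 and 2746 and 3705 CPM in fresh cells of odd-numbered mice. In even-numbered mice Gapdh had 2062, 2087 and 1619 CPM at pH 6.9, against 3382, 3541 and 3429 CPM at pH 7.4 and 2779 and 3138 CPM in fresh cells. The pH 7.4 libraries of odd-numbered mice and the pH 6.9 libraries of even-numbered mice were thus the 6 lowest of the 15. Gapdh rose in odd-numbered mice (0.65 ± 0.17, adjusted p = 0.0196) and fell in even-numbered mice (-0.86 ± 0.15, adjusted p = 0.00330), a difference of 1.51 ± 0.23 (adjusted p = 0.000227). The rise was lost as a call with the block (0.0663) and without pH 7.4 replicate 1 (0.0558) or pH 6.9 replicate 5 (0.164). Gapdh is often used to scale expression, and it did not hold level over the 15 libraries, at 1619 to 3705 CPM. In pH 6.9 replicate 3 and fresh replicate 4, left out of this fit, it had 691 and 910.0 CPM. All 35 genes together were low there too, at 0.430% and 0.507% of counts, against 1.26 to 1.94% in the 15 libraries.

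Pgk1, phosphoglycerate kinase, makes the first ATP of glycolysis. It had 862 and 941 CPM at pH 6.9, against 534, 568 and 472 CPM at pH 7.4 and 683 and 800.5 CPM in fresh cells of odd-numbered mice. It had 510.0, 496 and 449 CPM at pH 6.9, against 836, 907 and 913 CPM at pH 7.4 and 984 and 783 CPM in fresh cells of even-numbered mice. Neither set had overlapping pH groups, and the pH change was of like size and opposite sign. Pgk1 rose by a log2 fold change of 0.78 ± 0.17 in odd-numbered mice (adjusted p = 0.00750) and changed by -0.88 ± 0.15 in even-numbered mice (adjusted p = 0.00263), a difference of 1.66 ± 0.22 (adjusted p = 9.67e-05). The rise was lost as a call without pH 6.9 replicate 5 (0.0569), while the fall was called in all 6 fits that left out 1 library. The library of mouse 3 at pH 6.9, not in this fit, had 695 CPM of Pgk1.

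Pgam1, phosphoglycerate mutase, followed in even-numbered mice, with 486, 446 and 403 CPM at pH 6.9, against 939, 896 and 968 CPM at pH 7.4 and 496 and 668 CPM in fresh cells. In odd-numbered mice it stood at 537 and 717 CPM at pH 6.9, against 504, 607 and 395 CPM at pH 7.4 and 581 and 922 CPM in fresh cells, and the pH groups overlapped. It fell by 1.08 ± 0.20 on the log2 scale in even-numbered mice (adjusted p = 0.00404), with 0.32 ± 0.22 in odd-numbered mice (adjusted p = 0.388) and a difference of 1.40 ± 0.30 (adjusted p = 0.00335). The last steps, enolase and pyruvate kinase, were not called. Eno1 stood at 2791 and 2368 CPM at pH 6.9, against 2354, 2662 and 2640.1 CPM at pH 7.4 and 2339.7 and 2849 CPM in fresh cells of odd-numbered mice. Its values in even-numbered mice were 2539, 2460.3 and 1699 CPM at pH 6.9, against 2979, 2738 and 2732 CPM at pH 7.4 and 2079 and 2036 CPM in fresh cells, a log2 fold change of -0.35 ± 0.16 (adjusted p = 0.215). Eno3, the muscle enolase, ranged from 0.951 to 22.6 CPM.

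Pkm, pyruvate kinase, releases pyruvate and the last ATP. It stood at 1313 and 1176 CPM at pH 6.9, against 1428, 1416 and 900.4 CPM at pH 7.4 and 1499 and 1485 CPM in fresh cells of odd-numbered mice. The even-numbered mice had 1141, 1399.8 and 880.5 CPM at pH 6.9, against 1426, 1076 and 1042 CPM at pH 7.4 and 946 and 1189 CPM in fresh cells. Groups overlapped in both sets, with log2 fold changes of -0.01 in odd-numbered mice and -0.06 in even-numbered mice.

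Of the lactate dehydrogenases, Ldha encodes the subunit that favours lactate and Ldhb the subunit that favours pyruvate. Ldha had 2312 and 3173 CPM at pH 6.9, against 2125, 1821 and 2236 CPM at pH 7.4 and 2415 and 2876 CPM in fresh cells of odd-numbered mice. In even-numbered mice it had 1699.6, 1709 and 1488 CPM at pH 6.9, against 3101, 3049 and 3429.8 CPM at pH 7.4 and 2120.2 and 3434 CPM in fresh cells. Ldha fell by 0.98 ± 0.18 on the log2 scale in even-numbered mice (adjusted p = 0.00349), in every fit that left out 1 library, with 0.41 ± 0.20 in odd-numbered mice (adjusted p = 0.192) and a difference of 1.39 ± 0.27 (adjusted p = 0.00143).

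Ldhb moved the other way. It stood at 189, 220.2 and 112 CPM at pH 6.9, against 42.7, 91.3 and 42.2 CPM at pH 7.4 and 116 and 65.2 CPM in fresh cells of even-numbered mice. The odd-numbered mice gave 122 and 92.4 CPM at pH 6.9, against 70.8, 227 and 155 CPM at pH 7.4 and 54.0 and 39.3 CPM in fresh cells, and the pH groups overlapped. It rose in even-numbered mice (1.55 ± 0.41, adjusted p = 0.0349), with -0.52 ± 0.46 in odd-numbered mice (adjusted p = 0.513) and a difference of -2.07 ± 0.62 (adjusted p = 0.0301). The rise was lost without pH 7.4 replicate 2 (0.129) or 6 (0.155) or pH 6.9 replicate 2 (0.0830) or 4 (0.101). The difference was lost without pH 7.4 replicate 2 (0.0661), 3 (0.0635), 5 (0.0589) or 6 (0.0648) or pH 6.9 replicate 1 (0.0613), 2 (0.0529), 4 (0.0592) or 5 (0.125). Among the libraries that stood apart, Ldhb was at 419 CPM in pH 6.9 replicate 3 and at 678 CPM in fresh replicate 4.

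**Figure D3:**
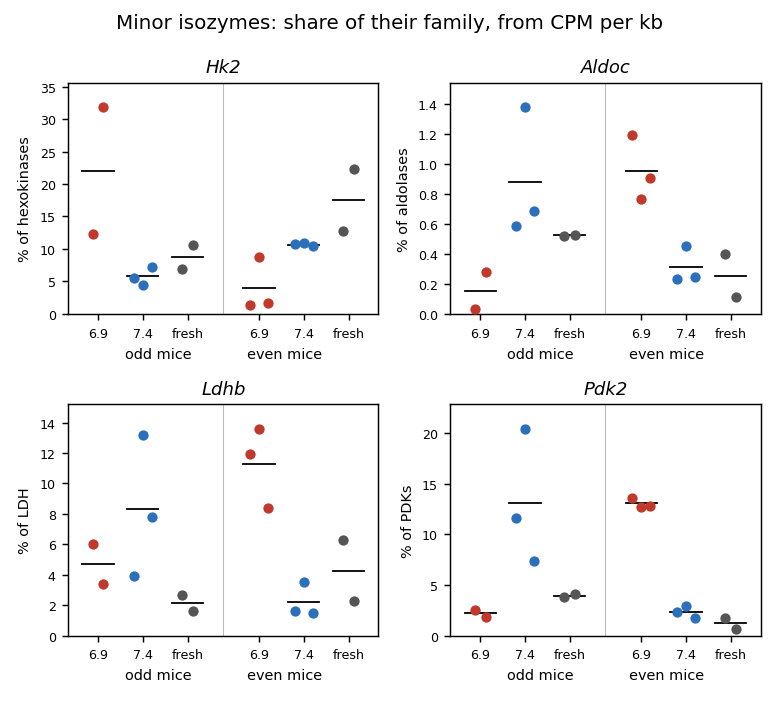
Share of each minor isozyme in its family, in percent of the summed CPM per kb of transcript, in each of 15 libraries; points are libraries, bars are set means, with pH 6.9 in red, pH 7.4 in blue and fresh cells in grey. The Pdk2 share is 12.7 to 13.6% at pH 6.9 and 1.72 to 2.95% at pH 7.4 in even-numbered mice, and 1.87 to 2.54% at pH 6.9 and 7.33 to 20.4% at pH 7.4 in odd-numbered mice.

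Pyruvate dehydrogenase kinases hold pyruvate back from the citric acid cycle, and Pdk2 had the smallest adjusted p of the 34 enzymes in the comparison of the sets of mice. It stood at 7.38 and 4.92 CPM at pH 6.9, against 32.8, 43.4 and 25.3 CPM at pH 7.4 and 9.74 and 10.6 CPM in fresh cells of odd-numbered mice. In even-numbered mice Pdk2 had 39.9, 39.99 and 37.6 CPM at pH 6.9, against 7.71, 11.4 and 6.01 CPM at pH 7.4 and 4.77 and 2.19 CPM in fresh cells. The 6 highest libraries were those at pH 7.4 of odd-numbered mice and at pH 6.9 of even-numbered mice, and they did not overlap with the other 9.

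Pdk2 fell at pH 6.9 in odd-numbered mice (-2.52 ± 0.48, adjusted p = 0.00357) and rose in even-numbered mice (2.21 ± 0.39, adjusted p = 0.00300), a difference of -4.73 ± 0.62 (adjusted p = 6.83e-05). These 3 calls were kept with the mouse number as a block and in all fits that left out 1 library. With all 18 libraries the difference was still called, and the changes within odd-numbered mice (adjusted p = 0.0953) and within even-numbered mice (0.630) were not. The libraries left out had 0.876 CPM in pH 6.9 replicate 3 and 0 counts in both fresh replicate 1 and fresh replicate 4.

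Pdk1, the form known as a target of hypoxia-inducible factor, was not called, at 35.05 and 41.4 CPM at pH 6.9, against 52.3, 28.9 and 37.9 CPM at pH 7.4 and 51.7 and 49.6 CPM in fresh cells of odd-numbered mice. The even-numbered mice had 23.7, 56.4 and 26.3 CPM at pH 6.9, against 61.9, 58.3 and 52.5 CPM at pH 7.4 and 35.3 and 44.2 CPM in fresh cells. Pdk3 was the main kinase per length of transcript, with 73.7 to 93.9% of the summed CPM per kb of Pdk1, Pdk2 and Pdk3 and levels of 148 to 329 CPM. The subunits of pyruvate dehydrogenase itself, Pdha1 at 89.1 to 208 CPM and Pdhb at 148 to 279.8 CPM, did not pass in any comparison.

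Shares within the other families are on the scale of CPM per kb of transcript. Aldoa made up 98.6 to 100% of aldolase and Eno1 98.6 to 99.9% of enolase in the 15 libraries. The Hk1 share, of the main hexokinase in most libraries, was 65.8 to 77.3% at pH 6.9 and 83.9 to 93.9% at pH 7.4 in odd-numbered mice, and 90.4 to 91.7% at pH 6.9 and 30.3 to 63.3% at pH 7.4 in even-numbered mice. The Ldhb share was 3.43 to 6.02% at pH 6.9 and 3.90 to 13.2% at pH 7.4 in odd-numbered mice, and 8.40 to 13.6% at pH 6.9 and 1.48 to 3.52% at pH 7.4 in even-numbered mice. The Hk2 share was 12.2 to 31.8% at pH 6.9 and 4.52 to 7.27% at pH 7.4 in odd-numbered mice, and 1.41 to 8.73% at pH 6.9 and 10.4 to 10.9% at pH 7.4 in even-numbered mice. The Hk3 share was 0 to 7.84% at pH 6.9 and 25.8 to 59.3% at pH 7.4 in even-numbered mice, and 2.41 to 10.5% and 0 to 11.6% in odd-numbered mice. The pH groups did not overlap in either set of mice for the Hk1 and Hk2 shares, while the CPM of Hk1 overlapped in both sets. A share also depends on the other genes of its family, so the Hk1 shares do not show a change in the level of Hk1. For the Ldhb share the pH groups overlapped in odd-numbered mice. Shares were not tested.

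**Figure D4:**
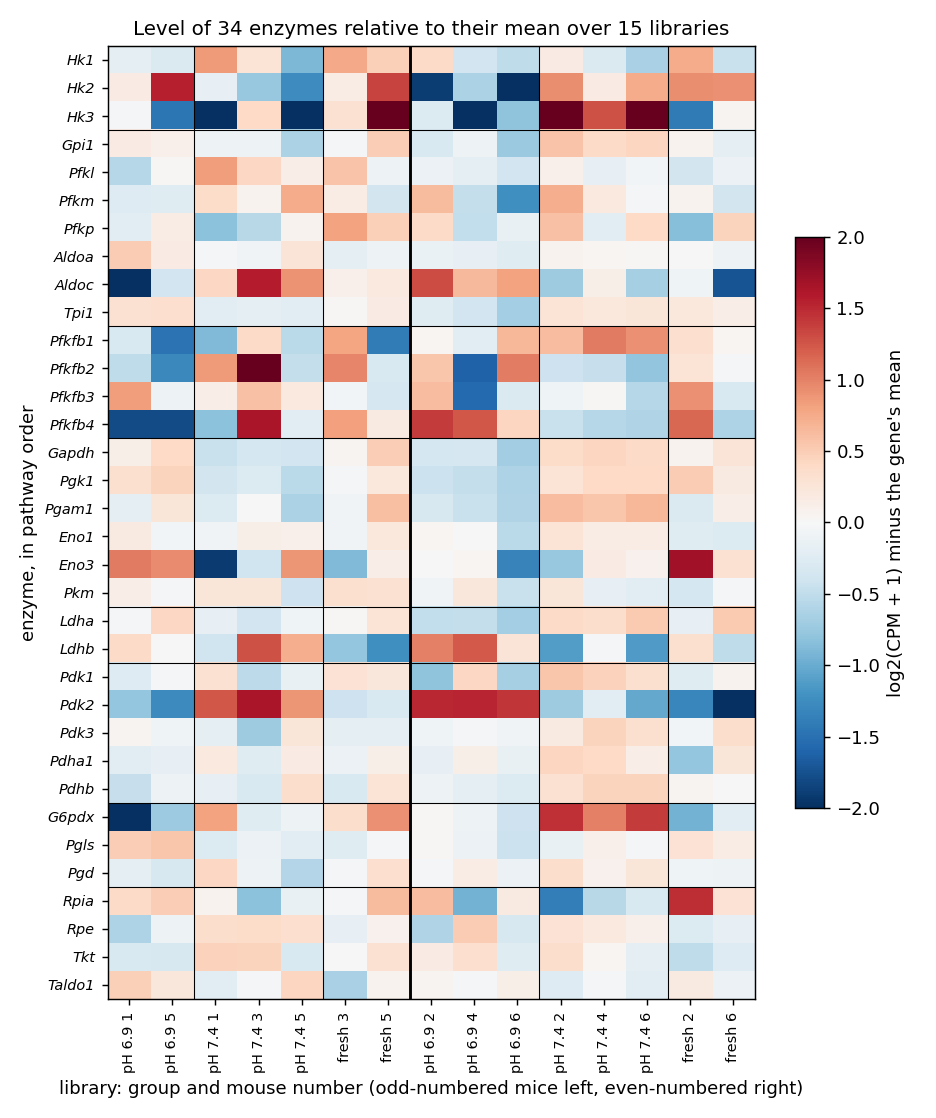
Level of 34 enzymes (rows, in pathway order, Eno2 left out) in 15 libraries (columns, by group and mouse number), as log2(CPM + 1) minus the gene's mean over the 15 libraries; the colour scale stops at 2 in either direction. The Pdk2 row is red in the pH 7.4 libraries of odd-numbered mice and the pH 6.9 libraries of even-numbered mice, where the rows of Gapdh, Pgk1 and Tpi1 are blue.

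The oxidative arm of the pentose phosphate pathway makes NADPH in 3 steps, encoded by G6pdx, Pgls and Pgd. G6pdx had 11.7 and 69.7 CPM at pH 6.9, against 204, 98.2 and 109 CPM at pH 7.4 and 149.5 and 221 CPM in fresh cells of odd-numbered mice. It had 119, 108 and 86.8 CPM at pH 6.9, against 322, 235 and 308 CPM at pH 7.4 and 59.8 and 101 CPM in fresh cells of even-numbered mice. The pH groups did not overlap within either set, and pH 6.9 was the lower group in both. The log2 fold change was -1.64 ± 0.52 in odd-numbered mice (adjusted p = 0.0591) and -1.48 ± 0.44 in even-numbered mice (adjusted p = 0.0623), neither of which passed, and their difference was -0.16 ± 0.66 (adjusted p = 0.900). The equally weighted average of both sets was -1.56 ± 0.34 (adjusted p = 0.0859). Exons of G6pdx overlap those of Ikbkg on the other strand over 418 bp, so reads there cannot be told apart, and the retrocopy G6pd2 was too low to be tested.

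Pgls, the lactonase that follows, stood at 220.1 and 230.5 CPM at pH 6.9, against 129.8, 145 and 136 CPM at pH 7.4 and 132 and 153 CPM in fresh cells of odd-numbered mice. The even-numbered mice gave 159, 144 and 116 CPM at pH 6.9, against 141, 169 and 155 CPM at pH 7.4 and 191 and 175 CPM in fresh cells, with overlapping groups. Pgls rose in odd-numbered mice (0.72 ± 0.19, adjusted p = 0.0218), with -0.16 ± 0.17 in even-numbered mice (adjusted p = 0.641) and a difference of 0.88 ± 0.26 (adjusted p = 0.0222). The rise was lost with the block (0.0567) and without pH 7.4 replicate 1 (0.0659) or pH 6.9 replicate 1 (0.0768) or 5 (0.107). The difference was lost without a filter on low counts (0.0548) and without pH 7.4 replicate 4 (0.0530) or 6 (0.0528) or pH 6.9 replicate 5 (0.0750) or 6 (0.0658).

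Pgd, phosphogluconate dehydrogenase, was not called, at 106 and 96.0 CPM at pH 6.9, against 159, 111 and 79.8 CPM at pH 7.4 and 118 and 151 CPM in fresh cells of odd-numbered mice. It had 116, 133 and 110.0 CPM at pH 6.9, against 152, 127 and 142 CPM at pH 7.4 and 113 and 111 CPM in fresh cells of even-numbered mice. Tkt, transketolase, shuttles sugars back to glycolysis in the non-oxidative arm, and it had 218 and 216 CPM at pH 6.9, against 371, 365 and 219 CPM at pH 7.4 and 270.1 and 335 CPM in fresh cells of odd-numbered mice. In even-numbered mice the values were 304, 339 and 228 CPM at pH 6.9, against 345, 278 and 236 CPM at pH 7.4 and 189 and 226 CPM in fresh cells. Its log2 fold change was -0.56 ± 0.25 in odd-numbered mice (adjusted p = 0.154). Taldo1, transaldolase, ranged from 576 to 1259.8 CPM, Rpe, which interconverts pentose phosphates, from 40.6 to 89.8 CPM, and Rpia, ribose phosphate isomerase, from 1.28 to 15.6 CPM, and none of the 3 passed in any comparison.

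**Figure D5:**
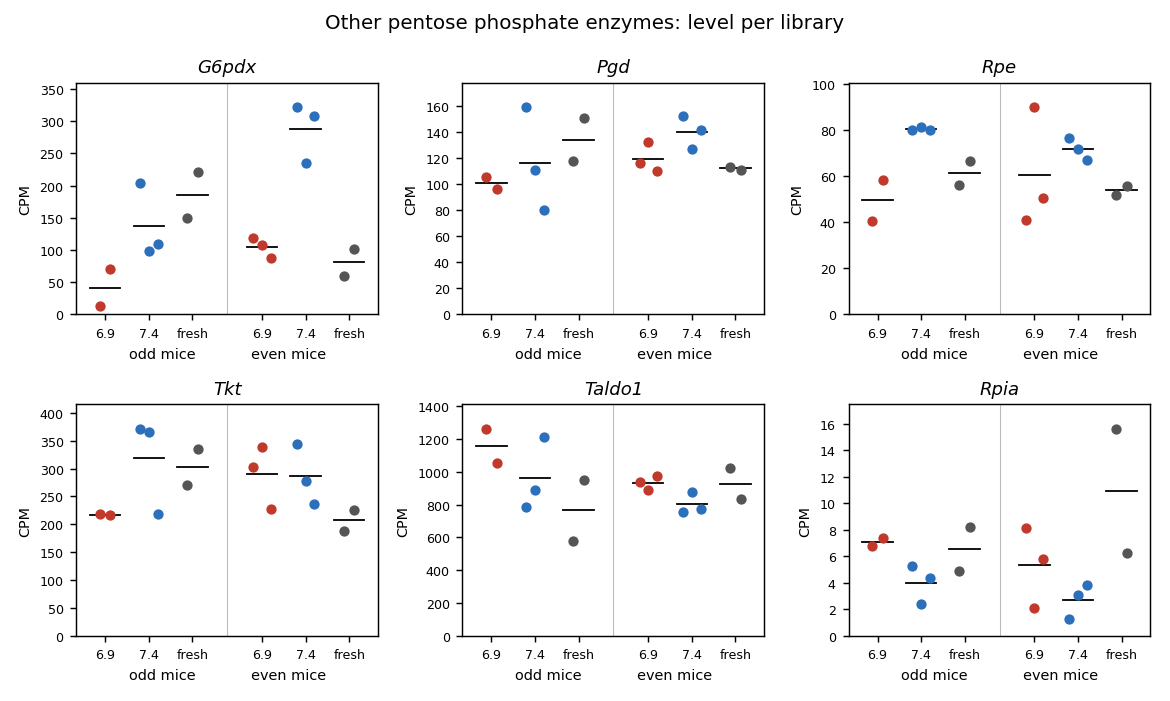
CPM in each of 15 libraries for 6 pentose phosphate enzymes; points are libraries, bars are set means, with pH 6.9 in red, pH 7.4 in blue and fresh cells in grey. G6pdx lies lower at pH 6.9 than at pH 7.4 in both sets of mice, between 11.7 and 119 CPM against 98.2 to 322 CPM, and the differences were not past the threshold.

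Summed over its 17 genes, the route from glucose to pyruvate took 12734 and 12595 CPM at pH 6.9, against 10113, 10599 and 9946 CPM at pH 7.4 in odd-numbered mice. In even-numbered mice the sum was 9850.5, 9846 and 7638 CPM at pH 6.9, against 13612, 12886 and 12931 CPM at pH 7.4. Fresh cells lay between 10826 and 13481 CPM. The sum over lactate dehydrogenases was 2434 and 3265 CPM at pH 6.9, against 2048 to 2391 CPM at pH 7.4 in odd-numbered mice, and 1601 to 1929 CPM at pH 6.9, against 3141 to 3472 CPM at pH 7.4 in even-numbered mice. The 7 pentose phosphate genes summed to 1573 to 1862 CPM at pH 6.9, 1682 to 1838 CPM at pH 7.4 and 1307 to 1886 CPM in fresh cells, so these groups overlapped. All 35 genes together took 1.26 to 1.94% of counts in the 15 libraries, and 0.430% in pH 6.9 replicate 3, 0.507% in fresh replicate 4 and 1.32% in fresh replicate 1.

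Against fresh cells within each set of mice, the enzymes passed in 1 comparison. In even-numbered mice at pH 6.9, 6 of 34 were called, beside 10.9% of all genes. Pdk2 rose (log2 fold change 3.48 ± 0.50, edgeR adjusted p = 0.000507; 4.77% of all genes were higher). Pgk1, Ldha, Hk2, Tpi1 and Gapdh fell (by 0.61 to 2.78 on the log2 scale; 6.15% were lower). The count was 2 without fresh replicate 2, fresh replicate 6 or pH 6.9 replicate 6, and 1 with all 18 libraries. At pH 6.9 in odd-numbered mice, 0 of 34 were called by edgeR, beside 0.6% of all genes, and 7 had an unadjusted p under 0.05. DESeq2 called 2 enzymes and 273 of all 10659 genes there. At pH 7.4, 0 of 34 were called in odd-numbered mice (0.113% of all genes, 9 enzymes at an unadjusted p under 0.05, 3 by DESeq2) and 0 of 34 in even-numbered mice (0.103% of all genes, 7 at an unadjusted p under 0.05, 0 by DESeq2). Over all 10659 genes DESeq2 called 173 in odd-numbered mice and 135 in even-numbered mice for this comparison. The comparisons with fresh cells in a set of mice share the same 2 fresh libraries.

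The sets of mice, which also differ in first index, were compared at the same pH as well. Within pH 6.9, 10 of 34 enzymes differed between odd-numbered and even-numbered mice, beside 14.4% of all genes. Pgk1, Tpi1, Gapdh, Hk2, Ldha, Pgls and Aldoa were higher (7.36% of all genes) and Pdk2, Pfkfb4 and Aldoc lower (7.02%) in odd-numbered mice. Aldoa had 2559.6 and 2033 CPM in odd-numbered mice, against 1651, 1615 and 1523 CPM in even-numbered mice (log2 fold change 0.52 ± 0.16, edgeR adjusted p = 0.0324). That call was lost without pH 6.9 replicate 1 (log2 fold change 0.35, adjusted p = 0.293), 2 (0.0569), 4 (0.0746) or 6 (0.0961), without a filter on low counts (0.0911) and with all 18 libraries (log2 fold change 0.02, adjusted p = 0.991). The count was 6 without pH 6.9 replicate 1 or 5 and 5 without pH 6.9 replicate 6, and 1 with all 18 libraries. Within pH 7.4, 5 of 34 differed, beside 3.33% of all genes, with Pdk2 higher (1.67% of all genes) and Gapdh, Pgk1, Pgam1 and Gpi1 lower (1.66%) in odd-numbered mice. The count was 3 without pH 7.4 replicate 2, and 0 without pH 7.4 replicate 6 or with all 18 libraries. Within fresh cells 0 of 34 were called by edgeR, beside 0.0563% of all genes, with 3 at an unadjusted p under 0.05 and 0 by DESeq2.

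Other genes of the pathway were taken from a list of 45, of which 31 could be tested, together with 17 regulators, of which 15 could be tested. At pH 6.9 in odd-numbered mice 1 of 31 rose (3.23%, beside 5.07% of all genes) and 0 fell. In even-numbered mice 1 rose (3.23%, beside 2.67%) and 2 fell (6.45%, beside 4.07%). Mpc2, a subunit of the carrier that brings pyruvate into mitochondria, had 189 to 240.0 CPM at pH 6.9, against 85.1 to 127 CPM at pH 7.4 in odd-numbered mice (1.05 ± 0.24, adjusted p = 0.00994, and 0.0903 without pH 6.9 replicate 1). Pdk4, the starvation-induced kinase of pyruvate dehydrogenase, had 9.96 to 17.6 CPM at pH 6.9, against 0 to 0.633 CPM at pH 7.4 in even-numbered mice (adjusted p = 0.0214, and 0.0548 to 0.0872 without pH 7.4 replicate 2, 4 or 6 or pH 6.9 replicate 4 or 6). Slc16a1, which exports lactate with a proton, had 53.3 to 66.2 CPM at pH 6.9, against 201 to 253 CPM at pH 7.4 in even-numbered mice (-1.93 ± 0.28, adjusted p = 0.000883). Dld, a subunit of pyruvate dehydrogenase, fell by 0.74 ± 0.20 there (adjusted p = 0.0289), a call lost in each of the fits that left out 1 library (0.0549 to 0.147). With all 18 libraries the calls of Mpc2 (0.145), Pdk4 (0.438) and Slc16a1 (0.611) were lost, as was that of Dld. Between the sets of mice the pH change was unequal in 6 of the 31 (19.4%, beside 18.1% of all genes), a share near that of all genes, with Mpc2 and Slc16a1 higher and Bpgm, Fbp1, Pdk4 and Pgm2 lower in odd-numbered mice. Of these 6 calls, Fbp1 was lost in 9 and Pgm2 in 8 of 11 fits that left out 1 library, and Bpgm and Mpc2 were lost in 1 each, without pH 6.9 replicate 5 (0.0911) and without pH 6.9 replicate 1 (0.0600). With all 18 libraries the differences of Slc16a1 (0.240), Mpc2 (0.229), Bpgm (0.426), Fbp1 (0.547) and Pgm2 (0.222) were lost as calls. Bpgm makes bisphosphoglycerate, Fbp1 runs the phosphofructokinase step backwards, and Pgm2 is a phosphoglucomutase.

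Of the 15 regulators tested, 1 was called at pH 6.9 in odd-numbered mice (6.67%, beside 11.1% of all genes). In even-numbered mice 2 were called (13.3%, beside 6.75%), and 2 were called for the difference between the sets (13.3%, beside 18.1%). Txnip, a glucose-responsive brake on glucose uptake, had 148 to 202 CPM at pH 6.9, against 39.5 to 77.1 CPM at pH 7.4 in even-numbered mice (1.52 ± 0.28, adjusted p = 0.00339). It had 67.6 to 70.1 CPM at pH 6.9, against 103 to 169.9 CPM at pH 7.4 in odd-numbered mice (adjusted p = 0.0723), and its pH change was unequal in the sets of mice (-2.42 ± 0.42, adjusted p = 0.000703). With all 18 libraries Txnip lost its calls in even-numbered mice (0.863) and for the difference (0.0987). Hif1a, the oxygen-regulated subunit of hypoxia-inducible factor, fell by 1.24 ± 0.36 in odd-numbered mice (adjusted p = 0.0361), a call lost with the block (0.0814) and without pH 7.4 replicate 1 or 3 or pH 6.9 replicate 1 or 5 (0.0797 to 0.227). The Hif1a call was also lost with all 18 libraries (0.161). Egln3, an oxygen sensor that marks that subunit for destruction, fell by 1.28 ± 0.38 in even-numbered mice (adjusted p = 0.0477), and its pH change differed between the sets by 1.83 ± 0.57 (adjusted p = 0.0306). Egln3 lost both calls with the block (0.0679 and 0.0642) and with all 18 libraries. Both were also lost without pH 7.4 replicate 2 or 6 or pH 6.9 replicate 2 or 6 (0.0606 to 0.201). The fall alone was also lost without pH 7.4 replicate 4 (0.0652), and the difference alone without pH 7.4 replicate 1 (0.0590) or 5 (0.0557) or pH 6.9 replicate 5 (0.105).

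Among lists of markers of other cell types, the summed levels of neutrophil granule genes did not overlap between the pH groups in either set of mice, those of MHC class II genes did not in odd-numbered mice, and those of mast cell and basophil genes did not in even-numbered mice. The 9 neutrophil granule genes checked (Mpo, Elane, Prtn3, Ctsg, S100a8, S100a9, Ltf, Camp and Ngp) summed to 162 CPM in both pH 6.9 libraries, against 39.5 to 70.6 CPM at pH 7.4 and 70.9 to 4952 CPM in fresh cells of odd-numbered mice. In even-numbered mice they summed to 28.4 to 49.8 CPM at pH 6.9, against 1582 to 4684 CPM at pH 7.4 and 103 to 254 CPM in fresh cells. In odd-numbered mice 4 of the 9 had counts at pH 6.9, 6 at pH 7.4 and 6 in fresh cells, and in even-numbered mice 5 had counts at pH 6.9, 7 at pH 7.4 and 5 in fresh cells. S100a9, Camp and Ngp were at 0 in 5 of these 6 sets each. The 4 MHC class II genes summed to 126 to 282 CPM at pH 6.9, against 12.4 to 27.6 CPM at pH 7.4 in odd-numbered mice, and to 15.3 to 24.5 CPM at pH 6.9, against 17.5 to 22.8 CPM at pH 7.4 in even-numbered mice, with H2-Aa at 0 at pH 6.9 in even-numbered mice. The 5 genes of mast cells and basophils summed to 20.1 to 20.9 CPM at pH 6.9, against 3.95 to 87.0 CPM at pH 7.4 in odd-numbered mice. In even-numbered mice they summed to 1.73 to 23.6 CPM at pH 6.9, against 37.8 to 179 CPM at pH 7.4, with Prss34 at 0 in both and Ms4a2 at 0 at pH 6.9. The pH groups overlapped in both sets of mice for the lists of monocytes and macrophages (201 to 270.4 CPM at pH 6.9, against 204 to 288 CPM at pH 7.4 in even-numbered mice), megakaryocytes and platelets, and B and T lymphoid cells. The part of these cells, or of the change in LT-HSC marker level, in the enzyme levels was not tested.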

How the data were processed

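The values analysed are estimated counts per gene symbol as deposited by the authors, all whole numbers. The authors used kallisto and mm10, per the submitters' processing notes; versions, and how transcripts were summed and rounded, are not given in the sources used here. Libraries were made with SMART-Seq v4 and Nextera XT, which keep no strand, and sequenced as paired reads of 75 bp. All columns were matched to samples by their names.

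Counts were used as whole numbers and tested with edgeR 4.0.16 (R 4.3.3): filterByExpr by group, TMM scaling, robust quasi-likelihood fits and Benjamini-Hochberg adjustment over all genes tested, threshold 0.05. One fit had a coefficient for each of the 3 groups (18 libraries), the other for each of the 6 sets of group and odd or even mouse number. The second left out 3 libraries with a total under 1e+05 or fewer than 10000 genes detected. CPM use the TMM-scaled totals of all 18 libraries. Library totals, 6311 and 1640817 to 7508120 counts, set the precision; a count of 0 allows up to 3 counts, and no molecular identifiers were used, so such floors cover counting error only. Shares per kb use the median length of basic coding transcripts in GENCODE M21.

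The design text names 6 individual mice, so equal numbers were taken to mark the same mouse, and a blocked fit on that number was an alternative. Residual profiles of libraries of a mouse correlated at -0.0951 to 0.156 (12 pairs, median 0.027, deviations from set means). Those of different mice correlated at -0.169 to 0.190 (62 pairs, median -0.011). With deviations from group means over 18 libraries the values were -0.492 to 0.143 for a mouse (18 pairs, median -0.019) and -0.447 to 0.677 for different mice (90 pairs, median 0.033). Pairing by mouse number was assumed and was not seen in these profiles. In sets of 2 libraries the deviations mirror each other, so the pairs are not independent and the check could miss a pairing. Other alternatives were DESeq2 1.42.0, its size factors, no filter, all 18 or only 15 libraries, and leaving out each library. The average of both sets of mice was added after seeing the data. The scripts were tested on simulated data.

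The members and gene lists were chosen with earlier results of these data known, and the split by mouse number follows earlier work on them. All 35 enzymes are accounted for; values per library are given for a set of 14 and for others called in a pH comparison, and the remaining enzymes by range. One list of cell type markers is not reported here.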

Additional observations from a re-analysis of the deposited data

Results flagged for a closer look

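The pH change differed between odd-numbered and even-numbered mice, by edgeR's test of that difference over 15 libraries, for 12 enzymes. Mouse set and first sequencing index cannot be told apart in it. The difference of the log2 fold changes, odd-numbered minus even-numbered, was 1.66 for Pgk1, 1.51 for Gapdh, 1.20 for Tpi1, 1.39 for Ldha, 1.40 for Pgam1, 4.45 for Hk2, 1.22 for Gpi1 and 0.88 for Pgls. It was -4.73 for Pdk2, -3.54 for Aldoc and -2.07 for Ldhb. For Pfkfb4 the fitted value was -9.33, which depends on the prior count because both pH 6.9 libraries of odd-numbered mice held 0 counts of it.

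Single libraries lay far from the other 5 of their group in 8 of 60 groups examined over the 6 mice; chance flags about 1 in 20 groups. In pH 6.9 replicate 3, Pfkl had 3.50 CPM and Pgd 5.25 CPM, the pentose phosphate genes summed to 1009 CPM, the lowest values of their groups, and the pyruvate entry genes summed to 1456 CPM, the highest. In fresh replicate 4, Ldhb had 678 CPM and the pyruvate entry genes summed to 1250.4 CPM, both the highest of the group. Hk2 had 79.5 CPM in fresh replicate 1, which is 1 count in that library. The PFKFB genes summed to 61.4 CPM in pH 7.4 replicate 3, the highest of its group. Of these libraries, pH 7.4 replicate 3 was in both fits and the other 3 were among the libraries left out of the fit by set of mice.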

How the results depend on the processing

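Of 49 calls of single enzymes, 0 changed sign in any alternative run. DESeq2's test kept all 49, its size factors lost 1, no filter lost 4, the mouse number as a block lost 6 of the 34 it could test, and including all 18 libraries lost 45. Fits that left out 1 library lost 87 of 331. The 3 libraries added to the 18-library fits held fewer genes, and the cause of the lost calls was not tested.

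Counts of enzymes called moved as follows. With all 18 libraries they were 0 for pH 6.9 against pH 7.4 in either set of mice, 2 for the difference between them, 1 for pH 6.9 against fresh in even-numbered mice, 1 for odd-numbered against even-numbered mice within pH 6.9 and 0 within pH 7.4. Of all 10104 genes, 65 passed between the pH values in odd-numbered mice, 0 in even-numbered mice and 173 for the difference. For pH 6.9 against fresh in even-numbered mice 82 genes passed, and between the sets of mice 152 within pH 6.9 and 0 within pH 7.4. Without a filter on low counts they were 3 and 2 for pH 7.4 against fresh in odd-numbered and even-numbered mice, 4 for pH 6.9 against fresh in odd-numbered mice, and 9 within pH 7.4 and 2 within fresh cells for odd-numbered against even-numbered mice. Counts over all genes without the filter are not given here, so these enzyme counts cannot be set against a share of all genes. DESeq2's test gave 3 for pH 7.4 against fresh and 2 for pH 6.9 against fresh in odd-numbered mice, and 8 for odd-numbered against even-numbered mice within pH 7.4. Over all 10659 genes DESeq2 called 173, 273 and 783 in these comparisons, against 12, 64 and 355 by edgeR. With the mouse number as a block the counts were 2 for pH 6.9 against pH 7.4 and 1 for pH 7.4 against fresh in odd-numbered mice, and the block changed no other count by over 1.5 times. Counts over all genes in the blocked fits are not given here either. For odd-numbered against even-numbered mice no paired analysis was possible because each mouse number belongs to 1 set of mice. The average of both sets of mice, chosen after seeing the data, gave 1 (Pdk2) for pH 7.4 against fresh.

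Leaving out each replicate in turn gave 3 to 9 enzymes for pH 6.9 against pH 7.4 in odd-numbered mice, 5 to 9 in even-numbered mice and 10 to 14 for the difference. It gave 0 to 1 for pH 6.9 against fresh in odd-numbered mice and 2 to 5 in even-numbered mice. For odd-numbered against even-numbered mice it gave 5 to 8 within pH 6.9 and 0 to 5 within pH 7.4, and it gave 0 in the remaining 6 comparisons. Over all genes, leaving out 1 replicate gave 161 to 491 calls for pH 6.9 against pH 7.4 in even-numbered mice. Between the sets of mice within pH 7.4 it gave 59 to 290 genes. Where a set of 2 libraries lost 1, the lone library was assumed to vary like the others. In the comparisons that hold such fits the counts over all genes moved too.

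Over 6 mice, 3 enzymes that were not called changed sign for pH 6.9 against pH 7.4. Hk2 was at -0.317 with the block, -0.276 as the average of both sets of mice and -0.0722 with 15 libraries, and leaving out 1 library gave -0.70 to 0.284. Pfkp was at 0.0103 as the average of both sets, and leaving out 1 library gave -0.258 to 0.0276. For Pgk1 leaving out 1 library gave -0.229 to 0.00683. Depth limits the scarce enzymes most, since a single count was worth 0.137 to 0.615 CPM in the 15 libraries and Pfkfb4 and Hk2 lay near that level in some libraries.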
